A study of Mus musculus with 24 samples.

Results

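The levels of 9 genes of the endothelial surface were compared between neonatal mice exposed to hyperoxia and mice kept in room air. Lungs were taken on the day after exposure ended, and retinas after a recovery in room air. The genes were the selectins Sele and Selp, the immunoglobulin adhesion receptors Icam1, Icam2 and Vcam1, the junction molecules Pecam1 and Cdh5, and Vwf and Cd34. They were chosen by name, with earlier results of these data known, and all 9 were listed among the 36109 genes of the lung table and the 36595 genes of the retina table. Hyperoxia raised 5 of them and lowered 3 in the WT lung, where 24.5% of all tested genes rose and 24.7% fell. In the WT retina, 5 of the 7 with enough counts to be tested rose and none fell, where 3.11% of all tested genes rose and 2.05% fell. Of 15 endothelial markers outside the members, 11 rose there and none fell, so the rise was not particular to the members. Between GSDMD-KO and WT mice of the same exposure, no member passed edgeR's test in either tissue.

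GSDMD-KO mice carry a deletion made by CRISPR/Cas9 within an exon of Gsdmd, which encodes gasdermin D, the protein that forms the membrane pore of pyroptotic cells. They and their WT littermates, both on the C57/B6 background, came from crosses of heterozygous mice. For the lung, newborn mice breathed room air with 21% oxygen (WT-RA, KO-RA) or 85% oxygen (WT-O2, KO-O2) from postnatal day 1 to 14, and lungs were taken on postnatal day 15. For the retina, mice stayed in room air with 21% oxygen from postnatal day 1 to 17, or spent postnatal day 7 to 12 in 75% oxygen and then returned to room air, and retinas were taken on postnatal day 18. Each group held 3 mice in each tissue, for 24 libraries of whole-tissue RNA in all. The tests set differences between groups against the spread between mice within groups, estimated over all groups of a tissue.

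Leukocytes leave the blood in steps. Selectins on the activated endothelium tether them to sugar chains on the leukocyte surface, integrins then bind ICAM-1, ICAM-2 and VCAM-1, and the cells finally pass the junctions held by VE-cadherin and PECAM-1. E-selectin, P-selectin, ICAM-1 and VCAM-1 are known as inducible by inflammatory cytokines through NF-kB, whereas ICAM-2, PECAM-1 and VE-cadherin are present on resting endothelium. P-selectin protein and von Willebrand factor are stored together in Weibel-Palade bodies, the secretory granules of endothelial cells, and CD34 is a sialomucin of capillary endothelium and of the tip cells of growing vessels.

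On the GRCm38 build, Sele occupies chr1:164048234-164057677 and Selp lies next to it on the same chromosome and strand, at chr1:164115264-164150026. Icam1 is at chr9:21015985-21028817, Vcam1 at chr3:116109949-116129688, Icam2 at chr11:106377656-106388075 and Pecam1 at chr11:106654217-106750628. The remaining members are Cdh5 at chr8:104101625-104144511, Vwf at chr6:125546774-125686679 and Cd34 at chr1:194938819-194961279. Icam2, Vcam1 and Pecam1 are read from the minus strand and the others from the plus strand. Annotated antisense genes overlap the gene spans, introns included, of Selp (Gm16548 and Gm16587), Icam1 (Gm47079), Vcam1 (Gm43109), Cdh5 (Gm29682) and Cd34 (Gm16897). Whether exons overlap was not examined, and it is not stated whether the counting used strand.

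RefSeq promoters of the GRCm38.p6 build were at hand for 4 of the 9 members. Those of Icam1, Sele and Selp are printed because these 3 genes had the highest fold changes in the lung. Each line holds the 250 bases before the annotated start, 5′ to 3′ on the plus strand, and capitals mark matches to the kappaB-like pattern GGNNNTTCC, searched on both strands (GGAANNNCC on the other), and to TATAAA.
Icam1, chr9:21015690-21015939: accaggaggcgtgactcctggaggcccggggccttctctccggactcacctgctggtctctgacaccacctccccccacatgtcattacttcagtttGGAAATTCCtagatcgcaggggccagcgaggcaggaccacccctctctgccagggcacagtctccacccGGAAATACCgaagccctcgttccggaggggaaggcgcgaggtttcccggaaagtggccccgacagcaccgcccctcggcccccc
Sele, chr1:164047984-164048233: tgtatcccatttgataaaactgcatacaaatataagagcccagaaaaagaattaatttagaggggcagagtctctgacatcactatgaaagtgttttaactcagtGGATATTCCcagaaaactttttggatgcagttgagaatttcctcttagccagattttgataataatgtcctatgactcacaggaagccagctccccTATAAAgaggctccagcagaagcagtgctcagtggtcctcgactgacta
Selp, chr1:164115014-164115263: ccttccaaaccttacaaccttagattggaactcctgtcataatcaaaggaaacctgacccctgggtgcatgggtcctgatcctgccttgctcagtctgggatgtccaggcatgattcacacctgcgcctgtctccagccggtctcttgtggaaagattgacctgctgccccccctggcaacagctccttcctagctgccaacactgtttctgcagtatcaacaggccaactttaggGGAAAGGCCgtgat
Icam1 held 2 kappaB-like positions, at 153 to 145 and at 84 to 76 bases before the start. Sele held 1 at 145 to 137 bases, together with TATAAA at 49 to 44 bases, and Selp held 1 at 14 to 6 bases. Of all 32851 promoters of the same length, 15.7% held the kappaB-like pattern and 12.4% held TATAAA. The promoter of Cd34, the fourth one at hand, held neither. The ETS-type core AGGAAG, searched on both strands and present in 29.5% of all promoters, was found in Sele, Selp and Cd34 and not in Icam1. The GC content was 65.2% for Icam1, 53.6% for Selp, 46.4% for Cd34 and 40.4% for Sele, against a median of 52.4% over all promoters. These matches are descriptions of the letters and not of binding.

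The libraries held 28763661 to 29604254 counts in the lung and 24863257 to 29093035 in the retina. Gsdmd, the targeted gene, stood at 41.4 ± 0.885 CPM (counts scaled for library size; mean ± SD, n = 3) in WT-RA lungs, at 34.4 ± 2.15 CPM after WT hyperoxia, at 24 ± 1.19 in KO-RA lungs and at 13.7 ± 2.38 in those of KO-O2. It was lower in KO-O2 than in WT-O2 lungs (log2 fold change -1.33, SE 0.11, adjusted p = 8.3e-05) and lower in room air as well (-0.79, SE 0.11, adjusted p = 0.014), with reads remaining in every knockout. In the retina Gsdmd was low, at 2.4 ± 1.85, 4.15 ± 1.42, 0.796 ± 0.173 and 1.83 ± 0.982 CPM in WT-RA, WT-O2, KO-RA and KO-O2, and the 2 genotype differences did not pass the test (adjusted p = 0.48 in hyperoxia and 0.35 in room air). The summed alveolar type 2 markers reached 14100 to 22800 CPM in every lung, and the summed neuronal and glial markers 44200 to 68900 CPM in every retina. One KO-O2 lung (GSD061) held 78.1 CPM of Alb, a liver gene, against at most 2.2 CPM in the other 11 lungs, and one KO-RA retina (GSD304) held 2010 CPM of retinal pigment epithelium markers against at most 548 CPM in the other 11 retinas. Y-linked transcripts were present in 0, 1, 2 and 3 of the 3 mice of WT-RA, WT-O2, KO-RA and KO-O2 in the lung, and in 3, 1, 3 and 1 in the retina, so that sex moved with exposure in both tissues and with genotype in the lung. With a term for sex, the lung counts of members were the same (8 in WT and 7 in the knockout).

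The members spanned a wide range of levels. Compared per length (CPM per kb of the longest coding transcript), the WT-RA lung held most Cdh5, the VE-cadherin gene, at 367 ± 20.5 CPM per kb. Pecam1 followed at 240 ± 13 CPM per kb and Cd34 at 211 ± 30, and these neighbours overlapped between mice. Icam1 at 123 ± 5.4 and Icam2 at 117 ± 3.43 CPM per kb overlapped likewise, as did Vwf at 26.2 ± 3.28 and Vcam1 at 23.6 ± 1.99. The selectins came last, with 0.458 ± 0.0844 CPM per kb for Selp and 0.0828 ± 0.0327 for Sele. In the WT-O2 lung Cd34, at 326 ± 14.4 CPM per kb, stood level with Cdh5, at 315 ± 29.4, and Icam1, at 246 ± 8.81, stood above Pecam1, at 187 ± 13.2, without overlap between these last 2.

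In the WT-RA retina the order was another one, with Cd34 first at 5.83 ± 1.23 CPM per kb and Icam2 next at 3.88 ± 0.0136. Pecam1 (3.2 ± 0.479), Vcam1 (2.55 ± 0.661) and Cdh5 (1.79 ± 0.557 CPM per kb) overlapped with their neighbours, and Vwf (0.936 ± 0.0944) overlapped with Icam1 (0.851 ± 0.141). Every member had a higher CPM in the WT-RA lung than in the WT-RA retina, from 9.27-fold for Vcam1 and 28-fold for Vwf to 144-fold for Icam1 and 205-fold for Cdh5. The ratios of Sele (19-fold) and Selp (118-fold) each rest on 1 count summed over the WT-RA retinas. The 2 tables were normalized separately and may not hold the same kind of count, so these ratios carry no test.

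In the WT lung, the first question was how hyperoxia changed the members. Of 16819 genes fitted with edgeR (quasi-likelihood test, Benjamini-Hochberg adjustment), 8 of the 9 members passed (adjusted p under 0.1 and p under 0.05). Sele, Selp, Icam1, Vcam1 and Cd34 rose, and Icam2, Pecam1 and Vwf fell. Of all tested genes 24.5% rose and 24.7% fell in this comparison, so that change was common in this tissue and the 3 of 9 members that fell lay near the share of all genes. The median log2 fold change was 0.63 over the members and -0.007 over all genes. A change of at least 2-fold was met by Sele and Selp upward, where 5.04% of all genes lay, and by Vwf downward, where 6.57% lay. The 3 hyperoxic mice lay above the 3 room air mice in 5 members, against 24.6% of all genes, and below them in 4, against 25.2%.

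Selp, which encodes P-selectin, showed the largest fold of the 9. Its levels were 1.26, 1.65 and 1.82 CPM in the WT-RA lungs and 9.41, 5.78 and 8.58 CPM in the WT-O2 lungs. The lowest hyperoxic lung thus lay far above the highest room air lung, and the fold change was 5.01 (log2 2.33, SE 0.25, adjusted p = 5.1e-06). In the knockout lungs Selp stood at 0.683, 0.827 and 1.05 CPM in room air and at 6.86, 5.70 and 4.05 CPM in hyperoxia. Here too the groups were wide apart, and Selp rose 6.45-fold (log2 2.69, SE 0.27, adjusted p = 3e-06).

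Sele, the E-selectin gene, was close to the limit of detection. The WT-RA lungs held 10, 5 and 6 counts (0.349, 0.168 and 0.206 CPM) and the WT-O2 lungs 18, 15 and 24 counts (0.614, 0.516 and 0.811 CPM). All 3 hyperoxic lungs were higher, with a fold change of 2.66 (log2 1.41, SE 0.47, adjusted p = 0.027). This call was lost without the WT-RA lung GSD399 (log2 1.21, adjusted p = 0.11) or the WT-O2 lung GSD406 (log2 1.22, adjusted p = 0.1). In the knockout, 7, 3 and 1 counts in room air (0.239, 0.103 and 0.0339 CPM) stood against 6, 8 and 5 counts in hyperoxia (0.21, 0.283 and 0.167 CPM). Those groups overlapped, and the log2 difference of 0.79 had an interval of -0.49 to 2.07 (adjusted p = 0.32). Without the KO-RA lung GSD490, the knockout comparison passed (log2 1.62, adjusted p = 0.089).

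Icam1 encodes the ligand of the leukocyte integrins LFA-1 and Mac-1 and, in the lung, is made by alveolar type 1 cells as well as by endothelium. It measured 318, 321 and 296 CPM in WT-RA and 598, 626 and 643 CPM in WT-O2 lungs. Each hyperoxic lung held about double the level of the room air group, with a log2 fold change of 1.00 (SE 0.07, adjusted p = 1.3e-07) that fell just short of the 2-fold threshold. Knockout lungs went from 294, 288 and 268 CPM to 666, 657 and 664 CPM, a 2.34-fold rise (log2 1.23, SE 0.07, adjusted p = 2.7e-08). The 3 KO-O2 values were nearly identical to one another and lay above those of all other lungs.

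Vcam1, the ligand of the integrin VLA-4, rose more moderately. Its values were 81.8, 88.7 and 74.9 CPM in WT-RA against 131, 154 and 114 CPM in WT-O2 lungs, and the fold change was 1.63 (log2 0.70, SE 0.12, adjusted p = 0.00031). In the knockout, 80.6, 77.2 and 94.0 CPM stood against 154, 125 and 127 CPM, without overlap (log2 0.69, SE 0.12, adjusted p = 0.00039). Cd34 measured 479, 511 and 625 CPM in WT-RA and 843, 864 and 793 CPM in WT-O2 lungs, a 1.55-fold rise (log2 0.63, SE 0.10, adjusted p = 0.00014). Its knockout values, 559, 514 and 516 CPM in room air and 922, 872 and 856 CPM in hyperoxia, did not overlap either (log2 0.74, SE 0.10, adjusted p = 3.8e-05).

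Icam2, Vwf and Pecam1 fell in the lungs of both genotypes. Icam2, which binds LFA-1 and sits at the junctions, stood at 154, 145 and 150 CPM in WT-RA and at 87.0, 86.0 and 69.2 CPM in WT-O2 lungs. Every hyperoxic mouse lay below the range of the room air mice, and the fold was 0.54 (log2 -0.89, SE 0.10, adjusted p = 7.3e-06). Knockout lungs held 138, 153 and 123 CPM in room air and 75.3, 82.6 and 83.3 CPM in hyperoxia (log2 -0.78, SE 0.10, adjusted p = 2.8e-05). ICAM-1 and ICAM-2 share an integrin, and their genes moved in opposite directions in both genotypes.

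Vwf encodes the multimeric glycoprotein that binds platelets and collagen and shapes the Weibel-Palade body. WT-RA lungs held 253, 244 and 199 CPM and WT-O2 lungs 156, 93.4 and 90.4 CPM, so that the highest hyperoxic lung stayed under the lowest room air lung, with a fold of 0.489 (log2 -1.03, SE 0.22, adjusted p = 0.0031). In the knockout, 178, 208 and 215 CPM stood against 91.7, 148 and 116 CPM (log2 -0.76, SE 0.22, adjusted p = 0.018). Vwf and Selp, whose products share a granule, thus moved apart in both genotypes.

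Pecam1, a homophilic molecule of the lateral junction through which leukocytes pass, measured 877, 799 and 799 CPM in WT-RA and 690, 600 and 637 CPM in WT-O2 lungs. The groups did not overlap, but the fall was small (log2 -0.36, SE 0.09, adjusted p = 0.0065). The knockout went from 674, 710 and 724 CPM to 601, 635 and 510 CPM (log2 -0.27, SE 0.09, adjusted p = 0.032), and this call was lost without the KO-O2 lung GSD493 (log2 -0.19, adjusted p = 0.13). Cdh5, the backbone of the adherens junction, was the 1 member that did not pass in the WT lung. It measured 1550, 1470 and 1380 CPM in WT-RA and 1370, 1130 and 1280 CPM in WT-O2 lungs (log2 -0.22, interval -0.46 to 0.03, adjusted p = 0.14). In the knockout it measured 1380, 1410 and 1360 CPM in room air and 1340, 1390 and 1010 CPM in hyperoxia, with overlap (log2 -0.15, interval -0.39 to 0.09, adjusted p = 0.31).

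**Figure D1:**
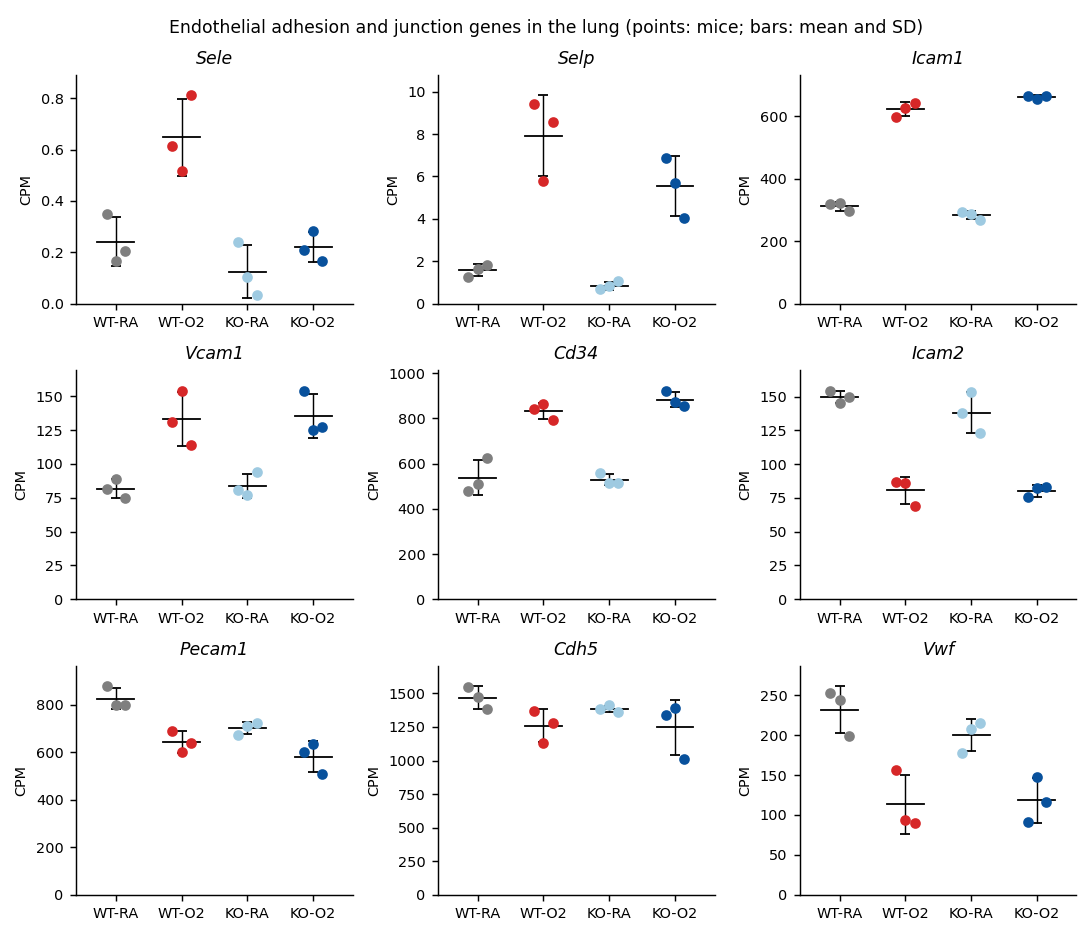
CPM of each member in the lung (vertical axes, each from 0), with 3 mice per group as points and the mean and SD as bars. Selp, Icam1, Vcam1 and Cd34 stand higher in both hyperoxia groups, and Icam2, Pecam1 and Vwf stand lower in both.

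Over the GSDMD-KO lungs, 7 of the 9 members passed, 4 upward and 3 downward, where 23.3% of all genes rose and 23.4% fell. A change of at least 2-fold was reached by Selp and Icam1 upward (4.57% of all genes) and by no member downward (6.03%). The groups were apart upward in 4 members (26.4% of all genes) and downward in 3 (26%). The count stayed at 7 without GSD061, the lung with the high Alb level.

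Other cells of the lung moved with exposure too. The counts of markers below stand beside 24.5% of all tested genes higher and 24.7% lower in WT, and 23.3% higher and 23.4% lower in the knockout. The 15 endothelial markers outside the members, none of them at 0 in any lung, summed to 3570 to 3780 CPM in WT-RA and 2870 to 3210 in WT-O2 lungs, and to 3350 to 3640 in KO-RA and 2840 to 3280 in KO-O2 lungs. Of these 15, 5 rose and 7 fell in WT (median log2 -0.18), and 2 rose and 8 fell in the knockout (median -0.31). In whole tissue, fewer endothelial cells and less RNA per endothelial cell cannot be told apart. The summed macrophage markers ranged over 421 to 481 CPM in WT-RA and 577 to 627 in WT-O2 (9 of 11 genes higher, 1 lower), and over 365 to 396 in KO-RA and 476 to 594 in KO-O2 (9 higher, 1 lower). Lymphocyte markers ranged over 213 to 223 CPM and 57.8 to 63.4 CPM in WT (8 of 8 lower) and over 136 to 242 and 49.9 to 62.9 CPM in the knockout (7 of 8 lower). Markers of mesothelium, which also carries ICAM-1 and VCAM-1, stood at 122 to 231 and 253 to 454 CPM in WT (3 of 6 higher) and at 181 to 234 and 327 to 557 CPM in the knockout (4 of 6 higher). Platelets hold P-selectin, PECAM-1 and von Willebrand factor. Their markers stood at 47.3 to 58 and 41.5 to 44 CPM in WT (1 of 10 higher, 3 lower) and at 51.2 to 63 and 33.3 to 49.9 CPM in the knockout (1 higher, 6 lower). Fibroblasts, of which some carry CD34, had markers at 4780 to 6920 and 6860 to 7830 CPM in WT (4 of 8 higher, 2 lower) and at 5930 to 7010 and 6520 to 7920 CPM in the knockout (4 higher, 2 lower). Neutrophil markers stood at 54.7 to 75 and 52.7 to 60.5 CPM in WT (0 of 8 passing) and at 60.9 to 133 and 54.6 to 59.4 CPM in the knockout (2 of 8 lower). None of these lists had a gene at 0 throughout a group. The part of these cells in the members' changes was not tested.

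As a description added after the values were seen, each member was also set relative to the summed endothelial markers of its own library. Per 100 CPM of these markers, Cdh5 stood at 39.5 ± 2.5 CPM in WT-RA and 41.1 ± 1.51 in WT-O2 lungs, and Pecam1 at 22.2 ± 1 and 21 ± 0.512, with overlap between the groups for both. Icam1 stood at 8.41 ± 0.568 and 20.4 ± 1.62, Cd34 at 14.5 ± 1.96 and 27.3 ± 2.48, Icam2 at 4.03 ± 0.0486 and 2.65 ± 0.391, and Vwf at 6.26 ± 0.862 and 3.68 ± 1.04, all without overlap. Vcam1 stood 1.98-fold higher on this scale, Selp 6.04-fold and Sele 3.26-fold, also without overlap. In the knockout lungs Cdh5 (39.4 ± 0.986 in room air and 40.6 ± 4.36 in hyperoxia), Pecam1 (20 ± 1.4 and 19 ± 0.917) and Sele (2.02-fold) overlapped between the groups. The other 6 did not, with folds of 7.38 for Selp, 2.7 for Icam1, 1.92 for Cd34, 1.86 for Vcam1, 0.677 for Vwf and 0.673 for Icam2. The summed markers were lower in hyperoxia in both genotypes, so that a gene of unchanged CPM stands higher on this scale. The share of all genes apart on this scale was not computed, so the number of members apart is no result about them.

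In the retina, hyperoxia was followed by recovery in room air, the setting in which new vessels grow. Sele and Selp had too few counts to be tested, and 5 of the other 7 members passed in WT, all upward, where 3.11% of the 19173 tested genes rose and 2.05% fell. All 5 rose at least 2-fold, which 1.77% of all genes did, and none fell that far, which 0.266% did. The median log2 fold change was 1.2 over the 7 members and 0.001 over all genes. The hyperoxic mice stood above the room air mice in 6 of the 7 (12.1% of all genes) and below in none (11.9%).

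Cd34 led the retinal members with 15.7, 11.4 and 17.6 CPM in WT-RA and 53.0, 41.0 and 43.9 CPM in WT-O2. The lowest of the hyperoxic retinas was more than double the highest of the room air ones, and the fold change was 3.09 (log2 1.63, SE 0.17, adjusted p = 0.0012). Knockout retinas held 13.6, 15.2 and 15.1 CPM in room air and 34.7, 33.9 and 26.5 CPM in hyperoxia, a 2.16-fold rise (log2 1.11, SE 0.17, adjusted p = 0.0066). All KO-O2 retinas were above all room air retinas and below all WT-O2 retinas.

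Cdh5 went from 6.56, 5.26 and 9.59 CPM in WT-RA to 21.4, 22.7 and 17.3 CPM in WT-O2, a 2.87-fold rise (log2 1.52, SE 0.19, adjusted p = 0.0029). In the knockout it went from 8.89, 8.00 and 7.63 CPM to 15.5, 17 and 15.1 CPM (log2 0.95, SE 0.19, adjusted p = 0.023). Both genotypes showed separate groups. Pecam1 stood at 11.4, 9.22 and 12.5 CPM in WT-RA and 27.7, 27.2 and 23.2 CPM in WT-O2 (2.37-fold, log2 1.24, SE 0.15, adjusted p = 0.0018), and at 12.3, 11.4 and 11.9 CPM in KO-RA and 24.8, 19.1 and 18.1 CPM in KO-O2 (log2 0.80, SE 0.14, adjusted p = 0.015). The junction pair that was lower or did not pass in the lung was thus among the clearest rises in the retina.

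Vwf measured 7.32, 8.88 and 8.61 CPM in WT-RA and 24, 18.8 and 14.2 CPM in WT-O2 retinas (2.3-fold, log2 1.2, SE 0.21, adjusted p = 0.014). Its knockout values were 6.73, 4.84 and 5.68 CPM in room air and 13.1, 19.3 and 16.8 CPM in hyperoxia. This was the 1 member with a higher fold in the knockout, at 2.86 (log2 1.51, SE 0.21, adjusted p = 0.005), and its room air values there were the lowest of the 4 groups.

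Icam1 was low, with 1.96, 1.94 and 2.57 CPM in WT-RA and 5.00, 5.68 and 3.23 CPM in WT-O2. It rose 2.15-fold (log2 1.10, SE 0.27, adjusted p = 0.059), the least certain of the 5 rises. The call was lost without any 1 of 4 retinas, namely GSD345 (adjusted p = 0.16) or GSD347 (0.21) of WT-O2, or GSD379 (0.19) or GSD382 (0.19) of WT-RA. It was also lost when the 6 libraries compared were fitted alone (log2 1.12, adjusted p = 0.11). In the knockout, 1.62, 2.96 and 2.07 CPM stood against 3.61, 3.90 and 4.00 CPM. These groups did not overlap, but the difference did not pass (log2 0.79, interval 0.2 to 1.38, adjusted p = 0.13). It did pass without the KO-RA retina GSD302 (log2 1.06, adjusted p = 0.09).

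Icam2 and Vcam1 did not pass in the retina of either genotype. Icam2 stood at 4.96, 4.99 and 4.97 CPM in WT-RA and 8.31, 6.61 and 9.05 CPM in WT-O2, without overlap (log2 0.68, interval 0.13 to 1.24, adjusted p = 0.19). In the knockout it stood at 2.70, 4.78 and 5.96 CPM and 6.14, 4.51 and 5.94 CPM (log2 0.31, interval -0.25 to 0.86, adjusted p = 0.55). Vcam1, which is also made by retinal glia and microglia, measured 10.6, 6.25 and 9.59 CPM in WT-RA and 9.58, 8.95 and 11.5 CPM in WT-O2 (log2 0.18, interval -0.21 to 0.57, adjusted p = 0.66). Its knockout difference was 0.13 on the log2 scale (interval -0.25 to 0.52, adjusted p = 0.74), with 10.6, 9.96 and 10.3 CPM against 11.4, 11.0 and 11.4 CPM.

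The retinal selectins were at the floor of the method. Sele had 0, 1 and 0 counts in the WT-RA retinas, 4, 11 and 4 counts with WT hyperoxia, 0, 0 and 1 in the KO-RA retinas, and 2, 0 and 0 with knockout hyperoxia. Summed over a group, 19 counts in WT-O2 against 1 in WT-RA gave a ratio of 19.1 with an exact 95% counting interval of 3.03 to 793, and 2 against 1 in the knockout gave 2.0 (0.104 to 118). Each WT-O2 retina held more Sele reads than any other retina. For Selp the counts were 1, 0 and 0 (WT-RA), 1, 12 and 0 (WT-O2), 1, 12 and 0 (KO-RA), and 0, 0 and 2 (KO-O2). Its reads came almost wholly from 1 retina of WT-O2 (GSD347) and 1 of KO-RA (GSD302), and the ratios of 13.1 in WT (1.96 to 555) and 0.154 in the knockout (0.0168 to 0.679) rest on those 2 mice. The intervals cover counting error only. A retina with 0 counts allows up to 3 counts, or 0.103 to 0.121 CPM of its total.

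**Figure D2:**
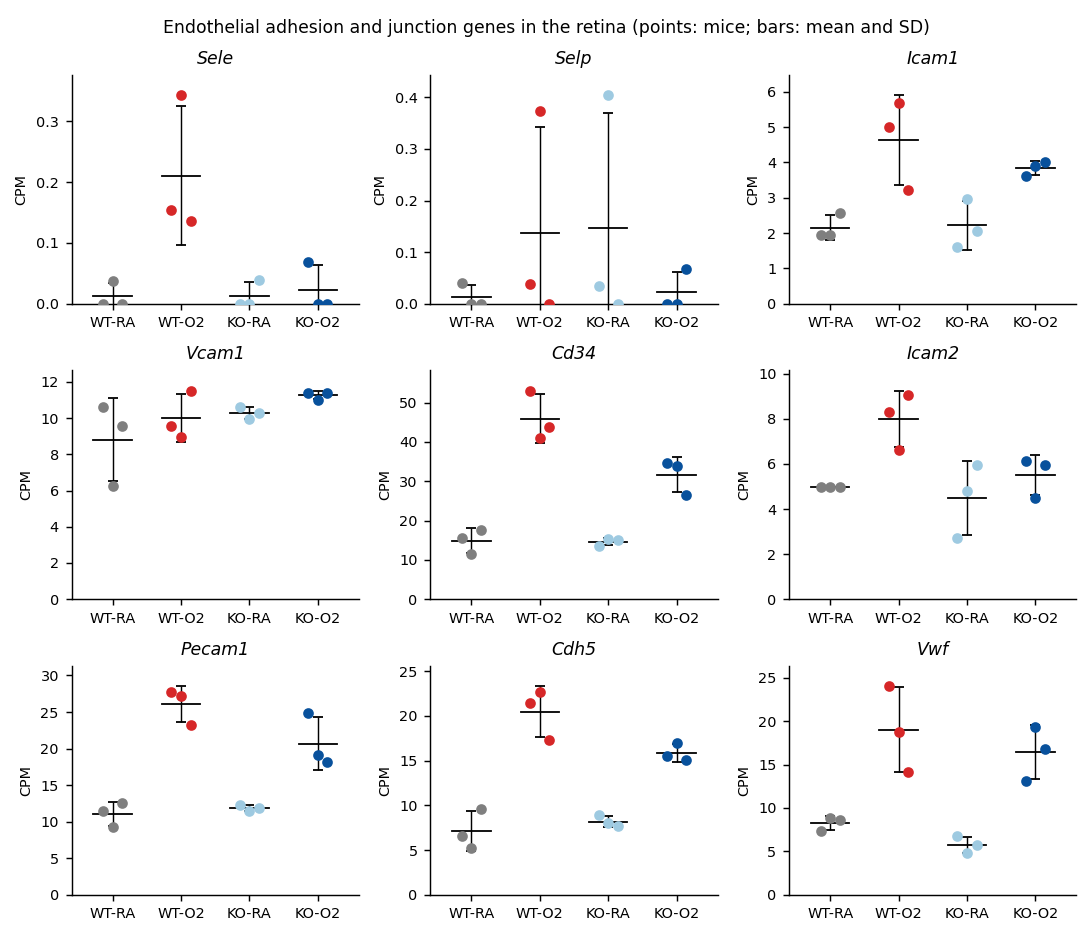
CPM of each member in the retina (vertical axes, each from 0), with 3 mice per group as points and the mean and SD as bars. Cd34, Cdh5, Pecam1 and Vwf stand higher in both hyperoxia groups, and the Selp counts rest on 2 single mice.

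In the GSDMD-KO retina, 4 of the 7 tested members rose and none fell, where 4.38% of all genes rose and 3.44% fell. Vwf and Cd34 rose at least 2-fold (1.64% of all genes), and none fell that far (0.553%). The groups were apart upward in 6 members (13.5% of all genes) and downward in none (12.7%). Without GSD304, the retina with the high pigment epithelium markers, 4 members passed again. With a term for sex, 4 members passed in WT: Cd34 (log2 1.78, adjusted p = 0.0054), Cdh5 (1.60, adjusted p = 0.014), Vwf (1.48, adjusted p = 0.0088) and Pecam1 (1.23, adjusted p = 0.013), while Icam1 did not (1.17, adjusted p = 0.17). The same 4 passed with that term in the knockout, with log2 fold changes of 1.27 for Cd34, 1.03 for Cdh5, 1.81 for Vwf and 0.79 for Pecam1.

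**Figure D3:**
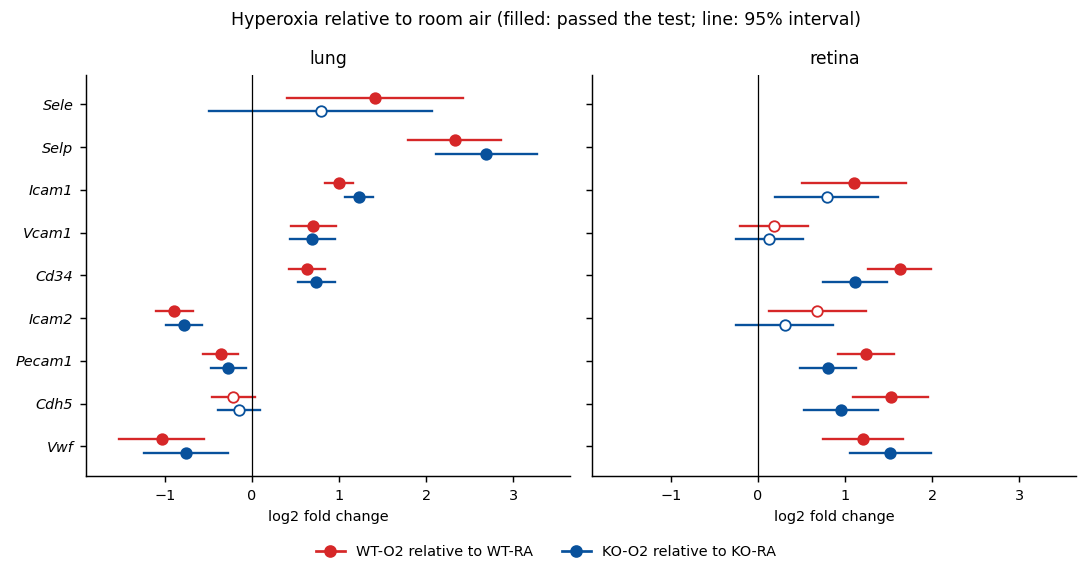
Log2 fold change of hyperoxia relative to room air (horizontal axis) with its 95% interval for each member in WT (red) and GSDMD-KO (blue), lung on the left and retina on the right. Filled points passed the test; Icam2, Pecam1, Cdh5 and Vwf lie below 0 in the lung and above 0 in the retina.

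Endothelial, pericyte and microglial markers stood higher in the hyperoxic retinas of both genotypes. The counts of markers below stand beside 3.11% of all tested genes higher and 2.05% lower in WT, and 4.38% higher and 3.44% lower in the knockout. The summed endothelial markers stood at 149 to 172 CPM in WT-RA and 299 to 345 in WT-O2, and at 163 to 180 in KO-RA and 247 to 288 in KO-O2, with none of the 15 at 0. Of them 11 rose and none fell in WT (median log2 1.07), and 9 rose and none fell in the knockout (median 0.86). Pericyte and smooth muscle markers stood at 96.6 to 138 and 217 to 301 CPM in WT (5 of 8 higher, median 0.88) and at 106 to 129 and 147 to 225 CPM in the knockout (4 of 8 higher, median 0.64). Macrophage and microglia markers stood at 40.7 to 67.3 and 99.7 to 148 CPM in WT and at 45.2 to 62.9 and 99.3 to 134 CPM in the knockout (4 of 10 higher in each). Pigment epithelium markers ranged over 175 to 548 and 99.9 to 217 CPM in WT and over 257 to 2010 and 84.5 to 221 CPM in the knockout (0 of 7 passing in each). Neuronal and glial markers ranged over 60200 to 68900 and 54000 to 61200 CPM in WT (3 of 9 lower, 0 higher, median -0.19) and over 54000 to 61500 and 44200 to 51700 CPM in the knockout (1 of 9 lower, 0 higher, median -0.1). The part of these cells in the members' rises was not tested.

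The retinal members were set against the endothelial markers in the same way, and the share of all genes apart on this scale was again not computed. Per 100 CPM of these markers, Cd34 stood at 9.1 ± 1.41 CPM in WT-RA and 14.2 ± 1.42 in WT-O2, Cdh5 at 4.36 ± 1.21 and 6.33 ± 0.631, and Pecam1 at 6.75 ± 0.647 and 8.07 ± 0.311, each without overlap. Vwf at 5.13 ± 0.865 and 5.84 ± 1.09, Icam1 at 1.33 ± 0.202 and 1.43 ± 0.335, and Icam2 at 3.07 ± 0.255 and 2.49 ± 0.501 overlapped between the groups. Vcam1 stood at 5.37 ± 1.03 and 3.13 ± 0.625, lower on this scale without overlap. Its CPM did not pass edgeR's test in WT (log2 0.18, adjusted p = 0.66). The summed markers were higher in hyperoxia in both genotypes, so that a gene of unchanged CPM stands lower on this scale. In the knockout retinas Cd34 (8.63 ± 0.434 and 12.1 ± 1.59), Cdh5 (4.83 ± 0.538 and 6.07 ± 0.156) and Vcam1 (6.09 ± 0.514 and 4.33 ± 0.442) were apart in the same directions on this scale. The CPM of Vcam1 did not pass edgeR's test in the knockout either (log2 0.13, adjusted p = 0.74). Vwf, however, was apart there too (3.41 ± 0.717 and 6.26 ± 0.881, 1.83-fold), whereas Pecam1 (7.04 ± 0.625 and 7.97 ± 1.74) overlapped, as did Icam1 (1.29 ± 0.326 and 1.47 ± 0.136) and Icam2 (2.64 ± 0.974 and 2.14 ± 0.498).

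The second question was whether GSDMD loss altered the members. In hyperoxic lungs none of the 9 passed edgeR's test between KO-O2 and WT-O2, where 0.00595% of all genes were higher and 0.0357% lower. DESeq2 also passed 0 of the 9, and 87 of all genes. At an unadjusted p under 0.05 there were 2 of the 9, against 6.21% of all genes. Sele was lower in the knockout with a log2 difference of -1.54 (interval -2.57 to -0.51, unadjusted p = 0.0061, adjusted p = 0.56). The KO-O2 lungs all lay under the WT-O2 lungs in 1 of the 9, Sele (5.8% of all genes), and all above them in 1, Icam1 (6.36%). Selp differed by -0.52 (interval -1.01 to -0.03, unadjusted p = 0.039, adjusted p = 0.77), with overlap. For the others the intervals were narrow: Icam1 0.09 (-0.07 to 0.25), Vcam1 0.02 (-0.23 to 0.28), Icam2 -0.01 (-0.22 to 0.21), Cdh5 -0.01 (-0.26 to 0.23) and Cd34 0.08 (-0.12 to 0.29). Pecam1 at -0.14 (-0.34 to 0.06) and Vwf at 0.06 (-0.42 to 0.54) did not pass either.

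In room air lungs, 0 of the 9 passed between KO-RA and WT-RA by either tool. By edgeR 0.143% of all genes were higher and 0.345% lower, and DESeq2 passed 418 genes. Of the 9, 2 had an unadjusted p under 0.05 by edgeR, against 10.5% of all genes. Selp was lower in each knockout than in each WT lung (log2 -0.88, interval -1.5 to -0.27, unadjusted p = 0.0082, adjusted p = 0.26). Pecam1 was lower likewise (log2 -0.23, interval -0.43 to -0.03, unadjusted p = 0.026, adjusted p = 0.4). With Icam1 (log2 -0.14, interval -0.3 to 0.02, adjusted p = 0.55), the knockouts lay wholly under WT in 3 of the 9, against 7.9% of all genes. The interaction, which asks whether the response to hyperoxia differed between the genotypes, passed for 0 of the 9 by either tool (by edgeR 0.00595% of all genes higher and 0% lower, by DESeq2 110 genes). Its 1 unadjusted p under 0.05 by edgeR (6.72% of all genes) was that of Icam1 (log2 0.23, interval 0.01 to 0.45, unadjusted p = 0.046, adjusted p = 0.73). For Selp the interval of the interaction ran from -0.42 to 1.14. For Sele, with 1 to 24 counts a lung, it ran from -2.33 to 1.08, so that a 2-fold difference in either direction was not detectable.

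Between KO-O2 and WT-O2 retinas, 0 of the 7 members passed by edgeR, where 0.569% of all genes were higher and 0.704% lower. Cd34, with its KO-O2 retinas all under the WT-O2 retinas, had a log2 difference of -0.54 (interval -0.89 to -0.18, unadjusted p = 0.0067, adjusted p = 0.19). DESeq2 passed Cd34 (log2 -0.55, adjusted p = 0.049) as its 1 member, among 1001 genes that it passed. Pecam1 was the other member with an unadjusted p under 0.05, where 12.6% of all genes lay (log2 -0.33, interval -0.65 to -0.02, unadjusted p = 0.039, adjusted p = 0.36). The KO-O2 mice lay wholly under the WT-O2 mice in 3 of the 7 members, namely Cd34, Icam2 (log2 -0.53, adjusted p = 0.42) and Cdh5 (-0.37, adjusted p = 0.46), against 9.86% of all genes. The median log2 difference was -0.33 over the 7 members, -0.31 over the 15 endothelial markers and 0.009 over all genes. Vwf (-0.21, interval -0.65 to 0.24), Icam1 (-0.27, interval -0.86 to 0.31) and Vcam1 (0.17, interval -0.21 to 0.56) overlapped between the genotypes.

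In room air retinas 0 of the 7 passed by either tool. By edgeR 0% of all genes were higher and 0.00522% lower, and DESeq2 passed 758 genes. Vwf was the 1 member of 7 with an unadjusted p under 0.05 by edgeR, near the share of 12.7% over all genes (log2 -0.52, interval -0.99 to -0.06, unadjusted p = 0.029, adjusted p = 0.34). It was also the 1 member whose knockout retinas all lay under those of WT, as in 7.09% of all genes. The interaction passed for 0 of the 7 by either tool (by edgeR 0.00522% of all genes higher and 0% lower, by DESeq2 569 genes). There was 1 unadjusted p under 0.05 by edgeR, against 10.6% of all genes. That was Cd34 (log2 -0.51, unadjusted p = 0.048, adjusted p = 0.47), and Pecam1 (-0.44, interval -0.89 to 0) and Cdh5 (-0.56, interval -1.16 to 0.03) followed, whereas Vwf had a positive value (0.31, interval -0.33 to 0.95).

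**Figure D4:**
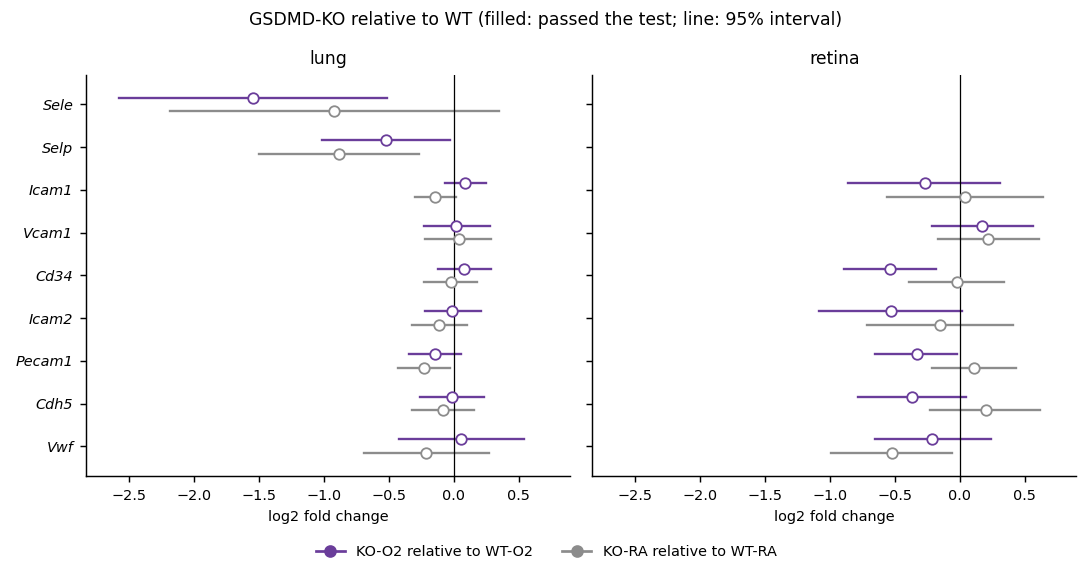
Log2 difference between GSDMD-KO and WT (horizontal axis) with its 95% interval for each member, in room air and in hyperoxia, lung on the left and retina on the right. None of the differences passed edgeR's test, and the intervals of Sele in the lung are the widest.

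The partners of the members were read from lists of their pathways. Over all tested genes 24.5% rose and 24.7% fell in the WT lung, and 3.11% rose and 2.05% fell in the WT retina. List counts near these shares, here and below, are no result about the list. In the lung, 10 of the 12 other genes of the adherens junction passed in WT, 4 upward and 6 downward (median log2 -0.19). Ptprb, the endothelial phosphatase that acts on VE-cadherin, fell from 627 to 164 CPM (log2 -1.94, SE 0.21, adjusted p = 1.5e-05) and Cdh2, N-cadherin, from 34.8 to 20.1 CPM (-0.79, SE 0.11, adjusted p = 4.2e-05), while Rapgef1 rose from 164 to 265 CPM (0.69, SE 0.11, adjusted p = 0.00022). Of the 12 tight junction genes 1 rose and 4 fell (median -0.15). Jam2 fell to 41.5 CPM (-1.32, SE 0.11, adjusted p = 4.3e-07), Esam from 238 to 169 CPM (-0.49) and Cldn5, the claudin of endothelial barriers, from 520 to 373 CPM (-0.48). In the retina 2 of 12 adherens junction genes (median log2 0.28) and 2 of 12 tight junction genes (median 0.13) rose and none fell. Cldn5 rose there from 31.8 to 57.4 CPM (log2 0.85, SE 0.16, adjusted p = 0.021), the reverse of its direction in the lung.

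Leukocyte ligands of the members went both ways in the lung, with 4 of 13 up and 5 down (median log2 -0.04). Cd38, a receptor for PECAM-1, fell from 56.3 to 20.3 CPM (-1.47, SE 0.13, adjusted p = 1.1e-06), and Spn, the sialomucin CD43, from 19.1 to 7.65 CPM (-1.32, SE 0.15, adjusted p = 6.5e-06). In the retina 3 of 12 rose and none fell (median 0.8): Itgb1, the beta chain of VLA-4, from 28.8 to 55.8 CPM (0.95, adjusted p = 0.015), Itga4, its alpha chain, from 17.3 to 34.4 CPM (0.99, adjusted p = 0.049), and Itgam, the alpha chain of Mac-1, from 2.03 to 4.16 CPM (1.04, adjusted p = 0.091). Of 10 genes that build selectin ligands, 3 rose and 5 fell in the lung (median -0.34), with St3gal6, a sialyltransferase, at 83.6 against 28.7 CPM (-1.54, SE 0.11, adjusted p = 7.4e-08), and 0 of 9 passed in the WT retina. Among the sialomucins and family neighbours of the members, 1 of 6 rose and 2 fell in the lung. In the retina 1 of 8 rose, the endothelial sialomucin Emcn, which stood at 6.24 against 17.9 CPM (1.52, SE 0.23, adjusted p = 0.0071).

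Genes of the Weibel-Palade body and of haemostasis surrounded Vwf and Selp. In the WT lung 5 of 14 rose and 2 fell (median log2 0.11). Angpt2, the angiopoietin stored with von Willebrand factor, rose from 40.0 to 136 CPM (1.77, SE 0.11, adjusted p = 3.9e-08) and Procr, the endothelial protein C receptor, from 3.11 to 23.9 CPM (2.94, SE 0.23, adjusted p = 3.4e-07), whereas Thbd, thrombomodulin, fell from 719 to 244 CPM (-1.56, SE 0.13, adjusted p = 3.4e-07). In the WT retina 4 of 13 rose and none fell (median 0.54), led by Procr (0.337 to 3.19 CPM, log2 3.23, adjusted p = 0.0027), Plat (8.71 to 19.7 CPM, 1.18, adjusted p = 0.0058) and Angpt2 (4.76 to 17.9 CPM, 1.91, adjusted p = 0.0078). Procr and Angpt2 thus rose in both tissues, and both also rose in the knockout, by 2.19 and 1.90 in the lung and by 1.74 and 1.44 in the retina on the log2 scale.

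Of 10 genes of transmigration and caveolae, 2 rose and 4 fell in the WT lung. Cav1, caveolin, fell from 1100 to 436 CPM (log2 -1.34, SE 0.11, adjusted p = 3.8e-07) and Plvap, of the diaphragms of fenestrae and caveolae, from 511 to 243 CPM (-1.07, SE 0.13, adjusted p = 2.1e-05). In the WT retina 4 of 10 rose and 1 fell. Mcam rose from 9.08 to 47.0 CPM (2.37, SE 0.23, adjusted p = 0.001), Msn, moesin, from 19.4 to 63.2 CPM (1.70, SE 0.19, adjusted p = 0.0016) and Cav1 from 46.1 to 76.4 CPM (0.73, SE 0.11, adjusted p = 0.006). Cav1 was the 1 gene of this list that differed between KO-O2 and WT-O2 retinas (44.3 against 76.4 CPM, log2 -0.79, adjusted p = 0.021). In that comparison 0.569% of all tested genes were higher and 0.704% lower.

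The inducers of the members and their receptors gave 3 of 10 up and 1 down in the WT lung, where Il1r1, the interleukin-1 receptor, rose from 47.0 to 89.8 CPM (log2 0.94, SE 0.08, adjusted p = 8.4e-07) and Ifngr1 fell from 192 to 107 CPM (-0.84, SE 0.10, adjusted p = 2.1e-05). Of 14 NF-kB and IRF regulators 6 rose and 5 fell. Irf1 fell from 91.9 to 49.0 CPM (-0.91, SE 0.09, adjusted p = 1.4e-06) and Nfkb1 from 143 to 94.5 CPM (-0.59, SE 0.07, adjusted p = 2.2e-05), while Nfkb2 rose from 40.7 to 67.3 CPM (0.72, SE 0.11, adjusted p = 9.1e-05). In the WT retina 2 of 8 inducers and 3 of 14 regulators rose and none fell. Atf3 went from 3.31 to 10.0 CPM (1.59, adjusted p = 0.0069), Birc3 from 0.861 to 2.88 CPM (1.74, adjusted p = 0.014) and Nfkb2 from 2.07 to 4.47 CPM (1.11, adjusted p = 0.039), and none of these 3 passed in the knockout (0.50, 0.18 and 0.66 on the log2 scale, adjusted p = 0.26, 0.78 and 0.16). The difference between the genotypes' responses, the interaction, passed for 0 of the 14 regulators by edgeR (adjusted p = 0.29 for Atf3, 0.24 for Birc3 and 0.67 for Nfkb2). Between KO-O2 and WT-O2 retinas, Atf3 was lower (4.8 against 10.0 CPM, log2 -1.06, adjusted p = 0.091) and Nfkbia, the gene of the NF-kB inhibitor IkB-alpha, was higher (55.4 against 41.5 CPM, log2 0.42, adjusted p = 0.09), and no other regulator passed. Over all tested genes 0.569% were higher and 0.704% lower in this comparison. Nfkbia is named after its value was seen.

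**Figure D5:**
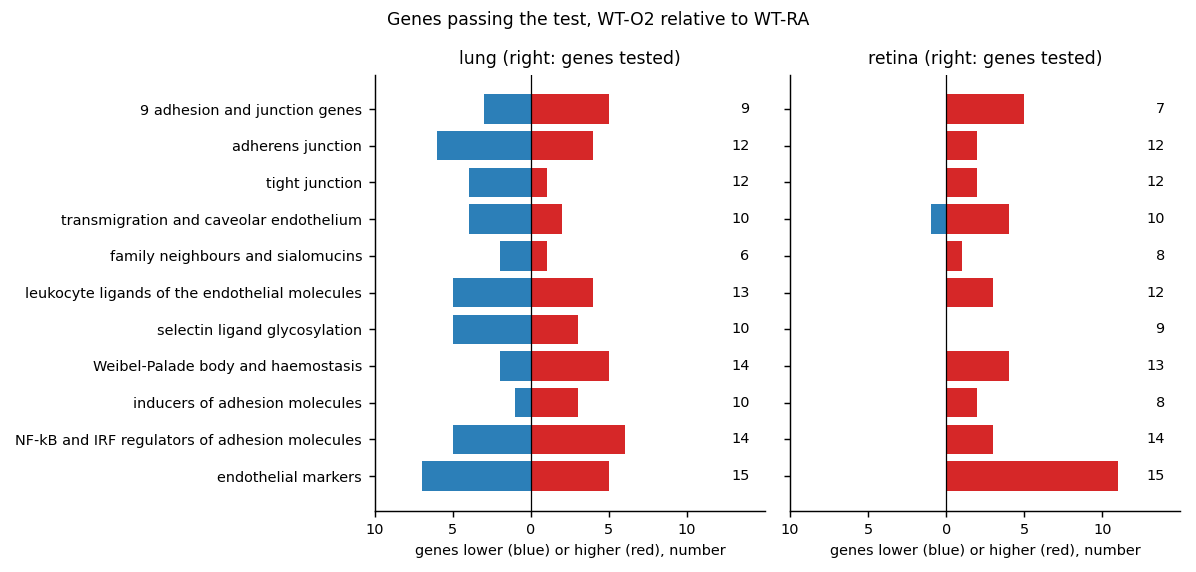
Number of genes of each list that rose (red, to the right) or fell (blue, to the left) in WT hyperoxia by edgeR's test, lung on the left and retina on the right, with the number tested at the right edge. In the lung every list has genes on both sides, whereas in the retina 1 list alone has a gene that fell. Over all tested genes 24.5% rose and 24.7% fell in the lung, and 3.11% rose and 2.05% fell in the retina.

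Genes with the most similar profiles were sought by the root mean square difference of centred log2 CPM over the 12 libraries of a tissue, among 14678 lung and 15660 retina genes. In the lung, Selp was nearest to Gpr176 (0.213), Angpt2 (0.254) and Pcdh7 (0.258), and Icam1 to Tbc1d2 (0.081), Lamb3 (0.083) and Nrp2 (0.084). Icam2 was nearest to Adgre5 (0.079), Ccm2l (0.083) and Prcp (0.085), and Vwf had Slco2a1 (0.163) and Stmn2 (0.171) among its nearest genes. For Vcam1 the nearest gene was Thbs3 (0.098), for Pecam1 Paf1 (0.092), for Cdh5 Sptan1 (0.048) and for Cd34 Pspc1 (0.059). In the retina the nearest genes of Cdh5 were Itih5 (0.189) and Pecam1 (0.189), a fellow member. Pecam1 itself was nearest to the pericyte gene Rgs5 (0.143), Cd34 to Ednra (0.158), Vwf to Gja4 (0.212) and Icam1 to Flna (0.124). Icam2 was nearest to Rps27l (0.197) and Vcam1 to Pias1 (0.113). The profiles share libraries and exposure, and the likeness is a description.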

How the data were processed

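RNA of 12 lungs and 12 retinas was sequenced by BGI. The authors quantified transcripts with kallisto, condensed them to genes with tximport and deposited expected counts (estimated counts), 1 table for each tissue, with no scaling to depth. The labels name mm10 and the methods GRCm39, and the tables hold no coordinates. Of nonzero lung values 55.77% lay within 0.01 of a whole number, against 2.2% of retinal ones. The reason is not stated, and the 2 tables may not hold the same kind of count. Symbols, lengths and positions came from GENCODE on GRCm38 by Ensembl identifier, which named 35816 lung and 35968 retina genes.

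Samples were grouped by their labels. Counts were rounded and fitted tissue by tissue in R 4.3.3 with edgeR 4.0.16: 12 libraries, 4 group terms, TMM factors, filterByExpr, robust quasi-likelihood F-tests and Benjamini-Hochberg adjustment over 16819 lung and 19173 retina genes. A gene passed at an adjusted p under 0.1 and p under 0.05, and the fold threshold of 2 was a second count. The SE was obtained by dividing the log2 fold change, without its sign, by the root of F, and 95% intervals use the degrees of freedom of the test. CPM use TMM factors. Ratios of the retinal selectins have exact binomial intervals. Code was tested on simulated counts. Motif matches were counted by letters in RefSeq promoters.

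Named are all 9 members, up to 3 genes of each pathway list with the smallest p in WT, up to 3 nearest genes of each member (mean of at least 1 CPM, pseudocount 0.5 CPM) and Gsdmd; not every such gene is printed. Members and lists were chosen with earlier results of these data known. Y-linked transcripts counted as present above 20 CPM. Alternatives were RLE size factors, no filter on low counts, DESeq2 1.42.0, the fold threshold, only the 6 libraries compared, a sex term and leaving out each library. The treatment protocol in the labels describes cultured cells and was not used. Protein sequences were not used here.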

Additional observations from a re-analysis of the deposited data

Results flagged for a closer look

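In WT mice 4 members moved one way in every hyperoxic lung and the other way in every hyperoxic retina, relative to the room air mice of the same tissue. The difference between the tissues was not tested. Groups were apart upward in 24.6% and downward in 25.2% of all lung genes, and in 12.1% and 11.9% of all retina genes. The share of all genes that moved oppositely in both tissues was not computed in either genotype, so these counts are no result about the members. On the log2 scale, Icam2 was -0.89 in the lung and 0.68 in the retina, Pecam1 was -0.36 and 1.24, Cdh5 was -0.22 and 1.52, and Vwf was -1.03 and 1.2. By edgeR's test, the lung value of Cdh5 and the retina value of Icam2 did not pass.

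In GSDMD-KO mice the same opposite movement was seen for Pecam1, at -0.27 (lung) and 0.80 (retina), and for Vwf, at -0.76 and 1.51. The tables were normalized separately, and the oxygen level, the days of exposure, the recovery in room air and the age at collection differed between the tissues, so that tissue and exposure cannot be told apart.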

How the results depend on the processing

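Over 958 values of single members under an alternative, 910 kept their direction and their side of the threshold, 9 were no longer past it, 4 came past it and 35 changed sign. The 35 belong to 16 differences that passed under no setting (adjusted p of at least 0.66 as reported). With the sex term, Icam2 between KO-O2 and WT-O2 lungs was 0.1 and Cd34 between KO-RA and WT-RA lungs 0.05 on the log2 scale. Without 1 library, the log2 differences between KO-O2 and WT-O2 lungs ran from -0.11 to 0.05 for Icam2, -0.09 to 0.14 for Vcam1, -0.13 to 0.36 for Vwf and -0.1 to 0.11 for Cdh5, and between KO-RA and WT-RA lungs from -0.11 to 0.1 for Cd34 and -0.05 to 0.1 for Vcam1. The lung interaction ran from -0.12 to 0.1 for Vcam1, -0.01 to 0.19 for Cdh5, -0.02 to 0.18 for Cd34 and -1.07 to 0.21 for Sele. In the retina, Vcam1 ran from -0.02 to 0.34 in WT hyperoxia and from -0.21 to 0.15 in the interaction, and between KO-RA and WT-RA the range was -0.41 to 0.11 for Icam2, -0.18 to 0.11 for Cd34, -0.23 to 0.22 for Icam1 and 0 to 0.21 for Pecam1, whose lowest value was negative before rounding. The 13 that changed sides belong to Sele and Pecam1 in the lung and Icam1 and Cd34 in the retina. The causes were not tested, except that fewer libraries were fitted where some were left out. No paired analysis was possible because the labels give each mouse a number of its own.

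Members passing (WT lung 8, knockout lung 7, WT retina 5, knockout retina 4) numbered 3, 2, 5 and 2 at a fold of at least 2. Under DESeq2 they numbered 8, 7, 5 and 5, and 1 passed between KO-O2 and WT-O2 retinas. Both with only the 6 libraries compared and with the sex term they numbered 8, 7, 4 and 4. Leaving out each library gave 7 to 8, 6 to 8, 4 to 5 and 4 to 5. The genotype comparisons and interactions otherwise held 0 members under each alternative run.

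Genes passing over all genes moved more. In the lung, WT hyperoxia gave 8268 genes (1952 at 2-fold, 7194 to 8310 without 1 library) and knockout hyperoxia 7857 (1783, and 6541 to 7213). KO-O2 against WT-O2 gave 7 (4 at 2-fold, 87 by DESeq2, 10 with only the 6 libraries, 2 with the sex term, 1 to 35 without 1 library). KO-RA against WT-RA gave 82 (23, 418, 27, 0, and 2 to 604), and the lung interaction 1 (2 without the filter, 110 by DESeq2, 0 with the sex term, 0 to 45 without 1 library). In the retina, WT hyperoxia gave 990 (391 at 2-fold, 1915 by DESeq2, 633 with only the 6 libraries, 374 with the sex term, 361 to 1278 without 1 library) and knockout hyperoxia 1500 (420, 2566, 835, 836, and 374 to 1733). KO-O2 against WT-O2 gave 244 (56, 1001, 110, 116, 12 to 351, and 128 without the filter). KO-RA against WT-RA gave 1 (758 by DESeq2, 0 with only the 6 libraries, 0 to 1 without 1 library), and the retinal interaction 1 (0 at 2-fold, 569 by DESeq2, 0 to 340 without 1 library). With only the 6 libraries of a comparison, no interaction can be fitted. Depth limits Sele and Selp: in the retina neither had enough counts to be tested, and in the lung Sele rested on 1 to 24 counts a library.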
